A study of Arabidopsis thaliana with 8 samples.

Results

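HY5, HYH, COP1 and SPA1 encode a pair of light-signalling transcription factors and the core of the ubiquitin ligase that removes them. Their transcripts were followed in root tips of Arabidopsis thaliana kept at 22 °C or moved to 30 °C. The 4 genes were taken by identifier from the 23632 genes of the normalized table: HY5 (AT5G11260), HYH (AT3G17609), COP1 (AT2G32950) and SPA1 (AT2G46340). All 4 were measured in every library and passed the minimum mean value of 1. Seedlings of the Col-0 accession grew upright on agar with sucrose, under 16 h of light and 8 h of darkness, for 5 days at 22 °C. Plates of the control then stayed at 22 °C for 48 h, while plates of the high temperature group spent the same 48 h at 30 °C. The apical 1 mm of the root was cut from 50 seedlings per pool, and each temperature was represented by 4 pools, each sequenced as 1 poly(A) RNA library. No mutant or transgenic line was included.

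HY5 (ELONGATED HYPOCOTYL 5) is a bZIP transcription factor that promotes light-dependent development, and HYH is its closest homologue. COP1 is a RING-type E3 ubiquitin ligase that acts together with SPA proteins, of which SPA1 is the founding member, to mark HY5, HYH and other factors for degradation in darkness, and photoreceptors restrain this ligase in the light. In roots HY5 is known for roles in root growth, nitrate uptake and flavonoid synthesis. Because HY5 abundance is set to a large part at the protein level, and no protein was measured here, the values below describe transcripts alone.

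The stretch of 200 bases just before each annotated gene start is shown because HY5-type bZIP factors recognise elements built on the letters ACGT, and HY5 is known to bind its own promoter. The sequences are from the RefSeq assembly TAIR10.1, read 5′ to 3′ on the strand of the gene, with the ACGT core in capitals. The windows are chr5:3595074-3595273 (minus strand) for HY5, chr3:6023644-6023843 (plus strand) for HYH, chr2:13977681-13977880 (plus strand) for COP1 and chr2:19027529-19027728 (minus strand) for SPA1.
HY5: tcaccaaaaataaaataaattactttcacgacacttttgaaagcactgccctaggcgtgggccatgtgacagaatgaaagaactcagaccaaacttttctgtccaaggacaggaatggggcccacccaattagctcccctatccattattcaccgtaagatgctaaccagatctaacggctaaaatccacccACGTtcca
HYH: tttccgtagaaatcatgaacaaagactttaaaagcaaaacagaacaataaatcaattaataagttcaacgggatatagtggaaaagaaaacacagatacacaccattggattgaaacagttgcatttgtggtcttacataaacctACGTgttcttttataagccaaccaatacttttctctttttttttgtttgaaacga
COP1: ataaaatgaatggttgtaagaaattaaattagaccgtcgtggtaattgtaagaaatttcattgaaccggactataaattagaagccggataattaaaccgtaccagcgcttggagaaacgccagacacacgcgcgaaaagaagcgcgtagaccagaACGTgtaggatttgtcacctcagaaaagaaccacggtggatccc
SPA1: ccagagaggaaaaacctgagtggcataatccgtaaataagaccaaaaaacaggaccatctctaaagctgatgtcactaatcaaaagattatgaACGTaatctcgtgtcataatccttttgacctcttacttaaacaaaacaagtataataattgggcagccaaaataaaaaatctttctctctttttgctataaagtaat
Each window held exactly 1 ACGT core, which started 8 bases before the gene start in HY5, 55 in HYH, 44 in COP1 and 107 in SPA1. The same letters occurred in 38.4% of 27443 windows of this length before all annotated genes with a full window. Neither strand of the 4 windows held a full G-box (CACGTG, in 5.64% of all windows) or a C-box (GACGTC, in 1.96%), both of which contain the ACGT core. Other elements that contain this core were not searched for. The heat shock element core GAANNTTC, in 7.59% of all windows, was found once, 149 bases before the start of COP1. A match to these letters is a description of the window and not a binding site. For HY5 the window spans the whole gap of 200 bases to OCP3, the neighbouring gene on the same strand.

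The libraries held 38216649 to 41833843 reads in genes, so that each member was covered by 1123 to 3805 reads per library. Values are normalized read counts, which are reads divided by a size factor per library, and a gene passed the test when its adjusted p in limma was under 0.05. A gene was called changed when its log2 fold change was also at least 0.58 in size, the fold used in the study. The size factors assume that most genes did not change between the temperatures. With the same total given to every library instead, the median difference over all tested genes, on the log2 scale, moved from 0.01 to 0.22, and every difference between the temperatures moved up with it. Ratios between genes of the same library and shares within a gene family do not depend on this scaling, and are therefore given beside the fold changes. Root hair cell markers (COBL9 and EXPA7) had summed values of 438 to 1034 in the control and 0 to 27.6 at high temperature, with both genes called lower. Root cap markers summed to 3143 to 3733 and 4088 to 4419, and stem cell niche and meristem markers to 2990 to 3416 and 3704 to 3876. The 4 genes of the latter list did not move together, with PLT1 and WOX5 called higher (log2 differences 0.91 and 2.33) and CYCB1;1, a B-type cyclin of dividing cells, called lower (-1.21). The CASP genes of the differentiated endodermis summed to 5.53 to 20.2 in the control and 1.94 to 178 at high temperature, where replicate 3 stood apart with CASP1 at 94.3. Markers of non-hair epidermis summed to 3865 to 4234 and 3286 to 3495, of xylem vessels to 621 to 873 and 504 to 689, of phloem to 210 to 284 and 397 to 470, and the leaf and stem markers CAB3 and LHCA3 to 170 to 196 and 132 to 187. The part of these shifts in the values of the members was not tested.

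HY5 had higher transcript levels at 30 °C. The normalized read counts of HY5 were 2667, 2547, 2714 and 2534 in the control and 3541, 3338, 3279 and 3230 at high temperature, so that the lowest library at 30 °C lay above the highest at 22 °C. The mean rose from 2616 ± 89.0 to 3347 ± 137 (SD, n = 4 each). On the log2 scale HY5 was 0.36 higher (SE 0.0390, 95% interval 0.27 to 0.44), a 1.28-fold difference, with an adjusted p of 7.0e-07 in limma. The exact two-sided permutation test over 70 arrangements gave p = 0.029, the smallest that 4 against 4 libraries allow. The difference was 0.37 without high temperature replicate 3, the library with the highest CASP values. It was 0.33 without high temperature replicate 1, the library with the highest HY5 value. In a piece of tissue such as this, a change in the number of cells that carry a transcript and a change in the amount per cell cannot be told apart.

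HYH followed with a smaller difference in the same direction. HYH stood at 1321, 1295, 1303 and 1176 in the control and at 1485, 1351, 1437 and 1380 at high temperature. The groups did not overlap (highest control library 1321, lowest at 30 °C 1351), and control replicate 4 was the lowest of the 8. The mean rose from 1274 ± 66.3 to 1413 ± 59.7 (SD, n = 4 each), a log2 difference of 0.15 (SE 0.0488, 95% interval 0.05 to 0.25) or 11.0%, with an adjusted p of 0.012 in limma. The exact permutation test again gave p = 0.029. RBL14, a rhomboid-like gene on the same strand that lies 84 bases beyond the end of HYH, went from 457 ± 38.1 to 1886 ± 169 (SD, n = 4 each) with a log2 difference of 2.04 (adjusted p = 1.5e-12 in limma). Its part in the reads of HYH was not tested. The 2 neighbours of HY5, 63 and 200 bases away on the same strand, differed by -0.06 and -0.03 on the log2 scale.

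COP1 did not pass the test. The normalized read counts of COP1 were 1515, 1463, 1397 and 1450 at 22 °C and 1517, 1533, 1490 and 1503 at 30 °C. Control replicate 1 lay within the range of the high temperature libraries, and the other 3 control libraries lay below it. The means were 1456 ± 48.8 and 1511 ± 18.4 (SD, n = 4 each), a log2 difference of 0.05 (SE 0.0398, 95% interval -0.03 to 0.14) with an adjusted p of 0.24 in limma and p = 0.086 in the exact permutation test. With the same total in every library the difference of COP1 was 0.26 (adjusted p = 2.9e-05 in limma), and with quantile normalization it was 0.10 (adjusted p = 0.032).

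SPA1 lay close to the threshold, and its direction depended on the scaling. SPA1 stood at 3658, 3427, 3631 and 3451 in the control and at 3219, 3316, 3448 and 3379 at high temperature, with high temperature replicate 3 inside the control range. The means were 3542 ± 120 and 3340 ± 97.2 (SD, n = 4 each). The log2 difference was -0.08 (SE 0.0361, 95% interval -0.16 to -0.01) with an adjusted p of 0.048 in limma, and the exact permutation test gave p = 0.057. With the same total in every library SPA1 was 0.12 higher at 30 °C (adjusted p = 0.0077 in limma), and with quantile normalization 0.04 higher (adjusted p = 0.28). Leaving out control replicate 1 or 3, or high temperature replicate 1, 2 or 4, also took the adjusted p above 0.05, with 0.055 to 0.13.

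**Figure D1:**
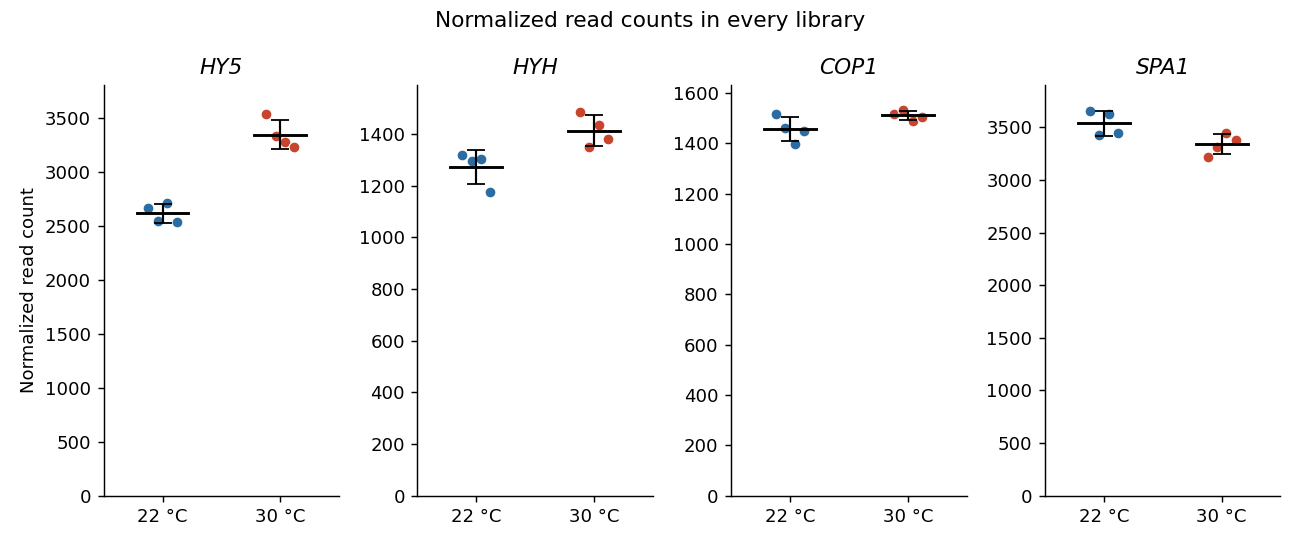
Normalized read counts (y axes, starting at 0) of HY5, HYH, COP1 and SPA1 in the 4 control libraries at 22 °C (blue) and the 4 high temperature libraries at 30 °C (red). Points are libraries, thick bars are means and error bars are SD. The groups do not overlap for HY5 (2534 to 2714 against 3230 to 3541) and HYH, and overlap for COP1 and SPA1. The share of all tested genes without overlap is not given here. By adjusted p alone in limma 35.9% of them were higher and 35.2% lower.

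None of the 4 members was called changed, in either direction and by limma, edgeR or DESeq2, while limma called 20.0% of the 21739 tested genes higher and 17.5% lower. By adjusted p alone 2 members were higher and 1 lower in limma, where 35.9% of the tested genes were higher and 35.2% lower. On recovered reads edgeR and DESeq2 placed 2 members higher and 0 lower by adjusted p alone. At an unadjusted p under 0.05 limma gave 2 higher and 1 lower. The log2 difference of HY5 exceeded that of 68.0% of the tested genes, HYH that of 58.0%, COP1 that of 52.5% and SPA1 that of 44.4%. The replicate spread of the members was near that of other genes of similar level, except for COP1 at high temperature, where it was lower. The coefficient of variation was 3.40% and 4.09% for HY5, 5.21% and 4.22% for HYH, 3.35% and 1.22% for COP1 and 3.38% and 2.91% for SPA1, in the control and at high temperature. Over 5509 genes with a mean between 1000 and 4000 the median was 3.79% and 4.10%.

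**Figure D2:**
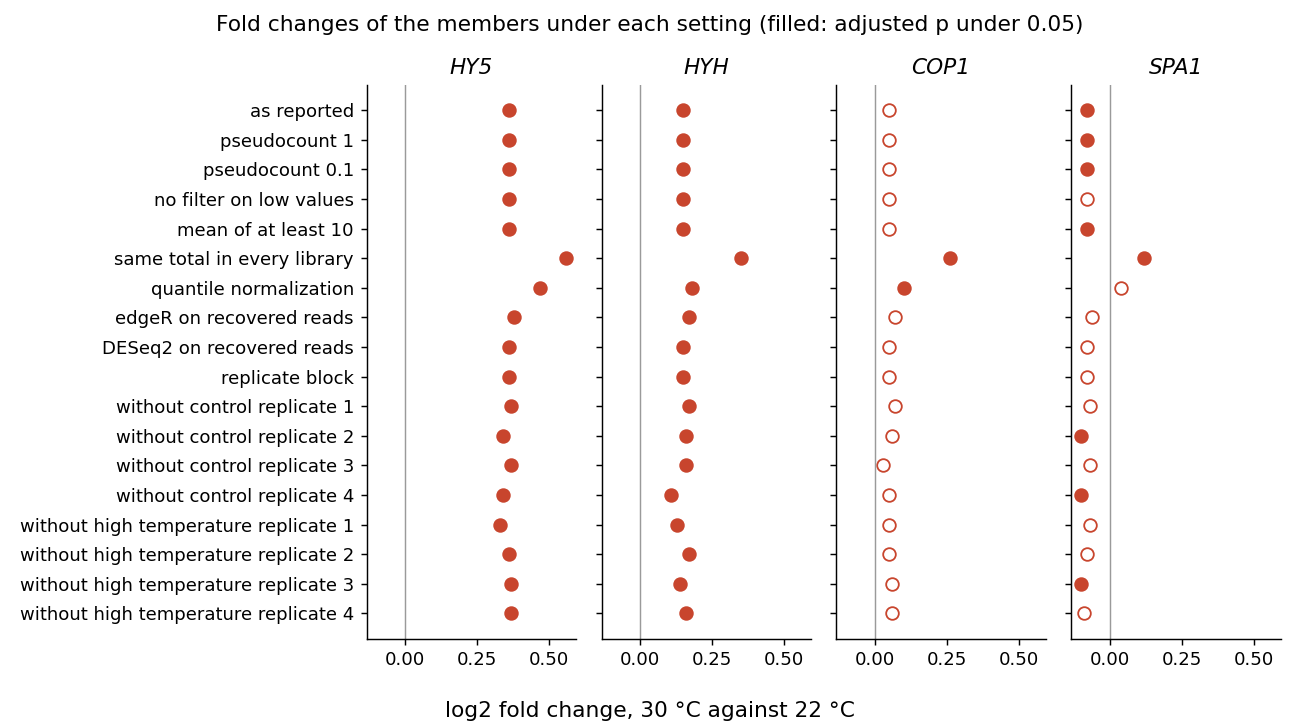
Log2 fold change of each member at 30 °C against 22 °C (x axes) as reported and under 17 other settings (rows). Filled points have an adjusted p under 0.05 and open points do not. HY5 lies between 0.33 and 0.56 and HYH between 0.11 and 0.35 with every point filled, while SPA1 runs from -0.10 to 0.12.

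Ratios within a library showed that the members did not change alike. The number of HY5 reads per HYH read was 1.97 to 2.16 in the control libraries and 2.28 to 2.47 at high temperature, a log2 difference of 0.20 (SE 0.037). HY5 relative to COP1 went from 1.74 to 1.94 in the control to 2.15 to 2.33 at 30 °C, a difference of 0.30 (SE 0.046). The largest of the 6 differences was that of HY5 relative to SPA1, with ratios of 0.73 to 0.75 at 22 °C and 0.95 to 1.10 at 30 °C, or 0.44 on the log2 scale (SE 0.049, 1.36-fold). The control libraries agreed closely in this ratio, and high temperature replicate 1 had the highest value. HYH relative to SPA1 differed by 0.24 (SE 0.052) and COP1 relative to SPA1 by 0.14 (SE 0.043). For these 5 pairs the groups did not overlap, and the exact two-sided permutation test gave p = 0.029, or 0.034 adjusted over the 6 pairs. The 6 ratios come from the same 4 genes and are not independent of each other. How often pairs of other genes differ in this way is not given here. The median size of the log2 difference over all tested genes was 0.49. HYH relative to COP1 differed by 0.10 (SE 0.054) with overlapping groups (0.81 to 0.93 against 0.88 to 0.98, permutation p = 0.171). The ratio of COP1 to SPA1 no longer passed without control replicate 1, 3 or 4 or without high temperature replicate 1 (permutation p adjusted over the pairs 0.069 in each case). A ratio shows that 2 transcripts changed unequally, and not which of them changed.

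**Figure D3:**
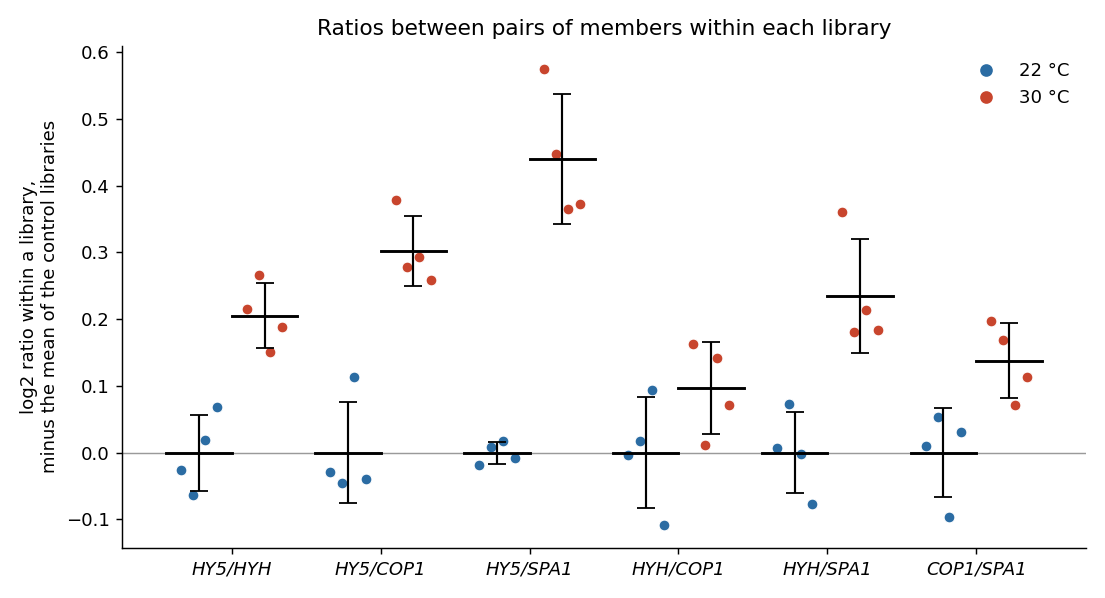
Log2 ratio of normalized read counts between 2 members of the same library, minus the mean of that ratio in the control libraries (y axis), for the 6 pairs (x axis). Points are the 4 libraries at 22 °C (blue) and the 4 at 30 °C (red), with mean and SD. The high temperature libraries lie above all control libraries in every pair except HYH/COP1, and the mean difference is largest for HY5/SPA1 (0.44).

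FPKM takes gene length into account and allows levels of different genes to be compared. For each gene the deposited FPKM stood in a fixed ratio to the normalized read count over the libraries. The FPKM values thus carry the same size factors, and their differences between the temperatures restate those of the normalized read counts. HY5 was the most abundant member with 52.7 ± 1.80 FPKM at 22 °C and 67.5 ± 2.76 at 30 °C (SD, n = 4 each), followed by HYH with 41.6 ± 2.17 and 46.2 ± 1.95. SPA1 came next with 21.7 ± 0.733 and 20.5 ± 0.596, and COP1 had the lowest level with 14.9 ± 0.499 and 15.4 ± 0.188. At both temperatures the libraries of neighbours in this order did not overlap. Averaged over the 8 libraries, HY5 had a higher FPKM than 91.7% of the genes in the normalized table, HYH than 88.6%, SPA1 than 77.3% and COP1 than 70.6%. Of the summed FPKM of the 2 bZIP genes, HY5 made up 55.5, 54.8, 56.2 and 57.1% in the control libraries. At high temperature the share of HY5 was 59.5, 60.4, 58.5 and 59.1%, above every control library. The mean share rose from 55.9 ± 0.98% to 59.4 ± 0.81% (SD, n = 4 each), a difference of 3.46 percentage points (exact permutation p = 0.029). This share restates the ratio of HY5 to HYH within each library and is not a separate result.

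SPA1 has 3 paralogues that also form complexes with COP1, and the composition of this family differed between the temperatures. SPA1 held 55.4, 56.1, 55.4 and 56.1% of the summed FPKM of SPA1 to SPA4 in the control and 50.2, 52.1, 54.0 and 53.9% at high temperature, each library at 30 °C lying below each at 22 °C. The share of SPA1 thus fell from 55.7 ± 0.40% to 52.6 ± 1.8% (SD, n = 4 each). SPA4, the least abundant member of the family, had shares of 3.60, 4.35, 4.47 and 4.28% in the control and 10.3, 8.74, 7.57 and 7.36% at high temperature, with the highest value in high temperature replicate 1. The share of SPA2 went from 23.3 ± 0.65% to 24.9 ± 0.88% and that of SPA3 from 16.8 ± 0.36% to 14.1 ± 0.48%. The 4 shares are parts of the same sum and not independent of each other. Each differed with no overlap between the groups (exact permutation p = 0.029, also after adjustment over the 4 shares). How often shares within other gene families differ in this way is not given here. By adjusted p alone in limma 35.9% of all tested genes were higher and 35.2% lower. Without any 1 of the control libraries the permutation p of the SPA1 share was 0.057 to 0.086, with differences of -3.06 to -3.30 percentage points. The permutation p of the SPA2 share was 0.057 without control replicate 2, 3 or 4 or high temperature replicate 1 or 2.

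In levels, SPA4 changed most within the family. The normalized read counts of SPA4 were 184, 206, 227 and 204 at 22 °C and 508, 431, 374 and 357 at 30 °C, a log2 difference of 1.01 (SE 0.112, adjusted p = 7.3e-07 in limma). SPA3 stood at 961, 858, 934 and 906 in the control and 735, 786, 785 and 766 at high temperature, with a log2 difference of -0.25 (SE 0.0521, adjusted p = 4.6e-04 in limma) that was -0.05 (adjusted p = 0.42) with the same total in every library. SPA2 differed by 0.09 (SE 0.0508, adjusted p = 0.11 in limma), and by 0.30 (adjusted p = 1.1e-04) with the same total. The summed FPKM of the 4 genes was 39.0 ± 1.59 at 22 °C and 39.0 ± 0.376 at 30 °C (SD, n = 4 each) under the deposited scaling.

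**Figure D4:**
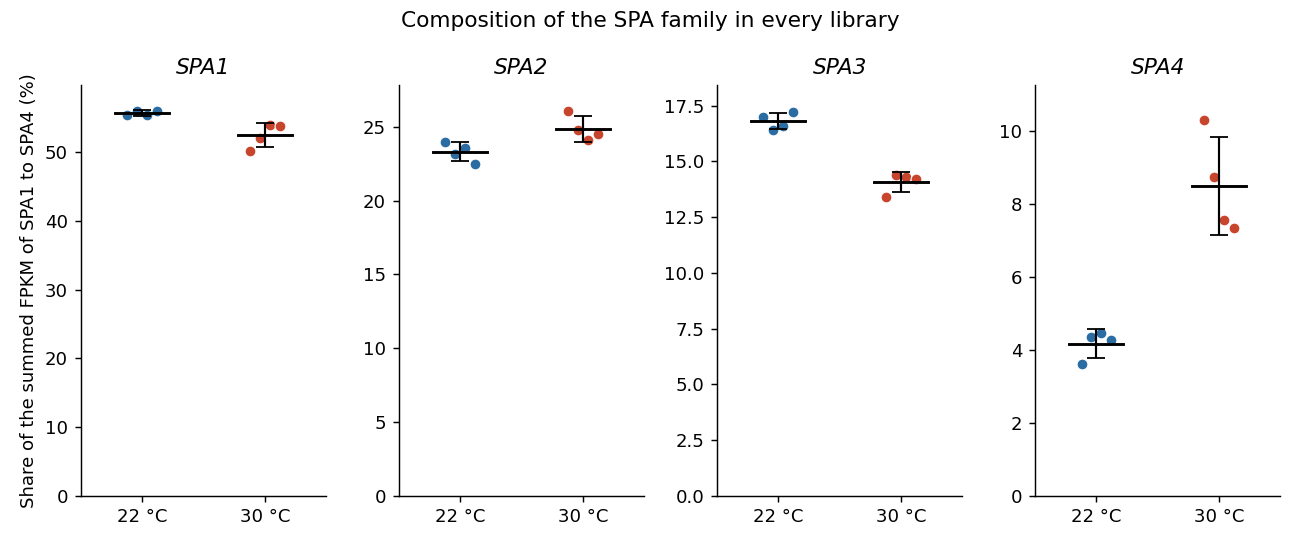
Share of each SPA gene in the summed FPKM of SPA1 to SPA4 (y axes in percent, starting at 0) in the libraries at 22 °C (blue) and 30 °C (red). Points are libraries, with mean and SD. The mean share of SPA4 is 4.18% at 22 °C and 8.48% at 30 °C, while that of SPA1 is 55.7% and 52.6%, and no panel shows overlapping groups. How often other gene families show this is not given here.

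The other genes of the pathway were taken from 9 lists with 89 genes tested, chosen by known role. Of these, 21 were called higher and 13 lower, or 23.6% and 14.6%, beside 20.0% and 17.5% of all tested genes. Their median log2 difference was 0.09, and with the same total in every library 27 were higher and 7 lower. With only genes of a mean of at least 10 kept, 20 listed genes were called higher and 9 lower. That filter gave 3778 higher and 3396 lower over all genes. Among all tested genes 53.4% of the calls were higher, and 69.7% with the same total. Upstream of COP1 and SPA1, 1 of 8 photoreceptor genes was called higher and 0 lower (median 0.18). It was PHYE, a phytochrome gene, which went from 1117 ± 38.7 to 1721 ± 42.8 (log2 difference 0.62, adjusted p = 2.4e-09 in limma). By adjusted p alone 5 photoreceptor genes were higher and 0 lower in limma, edgeR and DESeq2, and at unadjusted p in limma as well. With the same total in every library all 8 were higher by adjusted p in limma (median 0.39). The median of all tested genes was 0.22 with that scaling. The share of all tested genes past adjusted p alone with the same total is not given here. That limit holds for such counts of the lists below as well. Among 9 further ligase components, which include the paralogues of SPA1, the cullin CUL4 and the DDB1 and DET1 adaptors, SPA4 was called higher and 0 genes lower by all 3 tools (median -0.10). By adjusted p alone, as at unadjusted p, limma placed 3 higher and 4 lower, and by adjusted p 5 and 1 with the same total. RBX1, the RING subunit of cullin ligases, was the lowest of these with a log2 difference of -0.36 (adjusted p = 2.1e-07 in limma).

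The COP9 signalosome, which removes the NEDD8 modification from cullins, had 0 of 10 genes called in either direction by limma, edgeR or DESeq2 (median -0.17). By adjusted p alone 3 of its genes were higher and 6 lower in each of the 3 tools and at unadjusted p in limma, and 3 and 3 in limma with the same total in every library. Its differences ran from -0.36 (CSN5A, the catalytic subunit) to 0.32 (CSN8). Among 11 genes that act on COP1, HY5 or their transcription, CSU1 was called higher and 0 lower by the 3 tools (median -0.02), with 5 higher and 3 lower by adjusted p alone and at unadjusted p in limma. With the same total 4 of the 11 were called higher and 0 lower (8 and 2 by adjusted p alone), and with quantile normalization 2 and 1. CSU1, a RING protein known to limit COP1 abundance, rose from 1670 ± 40.9 to 3092 ± 203 (SD, n = 4 each), a log2 difference of 0.89 (adjusted p = 1.0e-10 in limma). FHY3, a transcription factor that activates COP1 in the ultraviolet-B response, differed by 0.43 (adjusted p = 1.4e-08 in limma) and its relative FAR1 by -0.02 (adjusted p = 0.74). RUP1 and RUP2, which return the photoreceptor UVR8 to its inactive form, differed by -0.44 and -0.55.

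Genes whose proteins share the fate or the work of HY5 moved in both directions. Among 10 other tested substrates of the ligase 2 were called higher and 2 lower (median 0.03). Of the higher calls, PAP2 had low values, 0 to 3.14 in the control and 2.90 to 11.3 at 30 °C, with overlapping groups. PIL1, a bHLH factor gene, rose from 59.2 ± 3.61 to 229 ± 37.4 (SD, n = 4 each, log2 difference 1.93, adjusted p = 7.0e-09 in limma), and SCAR1, an actin regulator known from roots, fell from 1654 ± 52.3 to 732 ± 41.8 (log2 difference -1.18, adjusted p = 1.2e-11). LAF1, a MYB gene of far-red signalling, had 38.2, 18.8, 46.9 and 20.9 in the control and no read in any library at high temperature. Set against a floor of 3 reads over the high temperature group, LAF1 was at least 44.6-fold lower. Of 12 B-box genes, whose proteins bind HY5 or act with it, 5 were called higher and 5 lower by limma (median -0.47), and 5 and 0 with the same total in every library. By edgeR and by DESeq2 4 were called higher and 4 lower. Among the lower calls of limma, BBX25 had 4.13 to 7.74 in the control and 0 to 8.44 at 30 °C. Its groups overlapped, and its adjusted p in limma was 0.048. BBX22, a cofactor of HY5, rose from 915 ± 25.7 to 2418 ± 62.9 (log2 difference 1.40, adjusted p = 2.3e-13 in limma). BBX18 and BBX31 were higher by 1.52 and 1.13, at means of 44.8 and 29.3 in the control. BBX32 was called higher by 1.39, at 1.03 to 12.6 in the control and 12.3 to 22.9 at 30 °C, with overlapping groups. This call of BBX32 was lost in edgeR and DESeq2, and its difference was 0.71 (adjusted p = 0.11 in limma) without control replicate 1. It was also lost without any 1 of the high temperature libraries, with adjusted p of 0.051 to 0.11. BBX21, another HY5 cofactor, was lower by a log2 difference of -0.71 (adjusted p = 2.8e-10 in limma), named after its value was seen.

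Genes for G-box binding bZIP factors, which bind the same elements as HY5, had 2 of 5 called higher and 0 lower by limma, edgeR and DESeq2 (median 0.33). By adjusted p alone 3 were higher and 1 lower in the 3 tools, and likewise at unadjusted p in limma. GBF1 rose from 994 ± 26.5 to 2303 ± 68.1 (log2 difference 1.21) and GBF2 from 813 ± 62.9 to 1414 ± 41.1 (0.80), with adjusted p of 1.0e-12 and 3.9e-09 in limma. Of 6 flavonoid genes that respond to HY5, 3 were called higher and 2 lower (median 0.60). CHS, chalcone synthase at the entry of the pathway, stood at 56938, 59923, 57240 and 52995 in the control and at 136302, 119583, 115089 and 110413 at high temperature, a log2 difference of 1.08 (SE 0.0575, adjusted p = 1.6e-10 in limma). CHI, the isomerase of the next step, fell from 7027 ± 371 to 4416 ± 511 with a log2 difference of -0.68 (adjusted p = 1.3e-07), which was -0.47 with the same total and -0.49 with quantile normalization, inside the fold threshold. MYB12, an activator of flavonol synthesis, rose by 1.44 (adjusted p = 4.8e-12 in limma), and MYB111, a related MYB gene, by 1.54 (adjusted p = 0.0053) at levels of 34.3 or less.

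Of 18 further genes known to respond to HY5 in light, nitrogen and hormone pathways, 6 were called higher and 4 lower (median 0.25). GA2OX2, a gibberellin-inactivating oxidase, had 11.4, 9.95, 3.20 and 4.19 in the control and 611, 505, 354 and 448 at high temperature, a log2 difference of 6.11 (SE 0.332, adjusted p = 2.0e-10 in limma). ABI5, a bZIP gene of abscisic acid signalling that HY5 is known to activate, rose from 59.6 ± 4.37 to 185 ± 25.5 (log2 difference 1.62, adjusted p = 7.3e-08). NIA1, a nitrate reductase gene, rose from 2139 ± 228 to 4573 ± 952 (log2 difference 1.08, adjusted p = 2.8e-07), with the highest value of 5853 in high temperature replicate 1. CAB1, a light-harvesting protein gene with near-identical copies that may share its reads, fell from 106 ± 14.4 to 14.2 ± 2.85 (log2 difference -2.87, adjusted p = 1.8e-08). The lists were put together from known responses in seedlings, mostly in light, and their direction in root tips is not given by them.

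**Figure D5:**
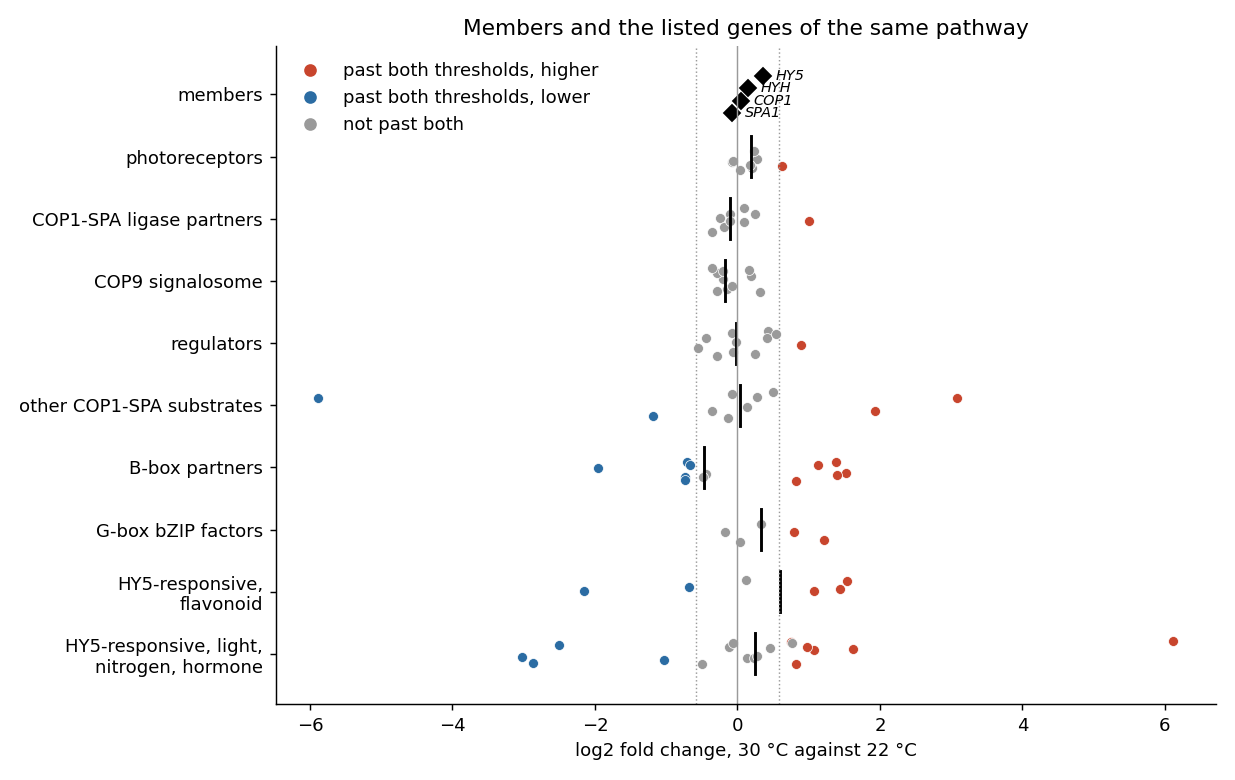
Log2 fold change at 30 °C against 22 °C (x axis) of the 4 members (diamonds) and of the 89 tested genes of the 9 lists (rows). Red points were called higher and blue points lower, dotted lines mark 0.58 in either direction and short black bars are list medians. The members lie between -0.08 and 0.36, inside the dotted lines, while listed genes reach 6.11 (GA2OX2), and the leftmost point is the fitted value of LAF1, which has no read at 30 °C.

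The genes whose pattern over the 8 libraries was most like that of each member were found by Pearson's r of log2 values among 16714 genes with a mean of at least 50. For HY5 they were NHX8, AT1G68440 and AT1G68300 with r of 0.997, and 4308 genes reached 0.9. For HYH they were ERD7 (0.978), AT4G31170 (0.977) and AT4G03820 (0.975), and 254 genes reached 0.9. COP1 was followed by AT5G53810 (0.990), RNEE/G (0.974) and EMB3126 (0.953) with 21 genes at 0.9 or above. SPA1 was followed by AT5G65495 (0.974), AGP24 (0.974) and AT1G09533 (0.970) with 105 genes. The libraries share their group difference and their depth, so these values describe likeness in 8 points and carry no test.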

How the data were processed

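Poly(A) RNA of 8 pools of root tips, 4 per temperature, was sequenced as directional libraries. The authors deposited normalized signal values, which are read counts divided by size factors, and FPKM values. HISAT2, DESeq2 and the build TAIR10 are listed in the submitters' processing notes. How reads were counted, with or without strand, and by which versions, is not given in the sources used here. The labels give 4 biological replicates per temperature and the methods of the study 3, and all 8 libraries were used. The p-values measure the spread between these pools, and temperature and any other difference between the groups cannot be told apart.

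Of the 23632 identifiers in the normalized table, 23479 were found in the RefSeq table of TAIR10.1. The lengths behind the FPKM values matched the merged exons of that annotation within 0.1% for 99.4% of these genes. Log2(value + 0.5) of the 21739 genes with a mean of at least 1 was fitted with limma 3.58.1 (R 4.3.3, intensity trend, no covariate) and adjusted by Benjamini-Hochberg over all of them. Fold changes are on this scale and understate changes of low genes. The fit was tested on simulated data. Of the values 100% were whole multiples of 1 read within 0.01. On these recovered reads edgeR 4.0.16 called 4412 genes higher and 3636 lower, and DESeq2 1.42.0 called 4203 and 3706. Single values were compared by exact two-sided permutation tests in Python 3.11.15.

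The members were taken by identifier, with no threshold on a value, and members and lists were chosen with earlier results of these data known. Of 98 entries, 2 were dropped because the reference did not give that name to the identifier, and PAP1, BBX23 and NRT2.1 were not in the normalized table. Named were the members, SPA2 to SPA4, up to 4 called genes per list with a mean of at least 10 and the largest change, and 3 genes per member by likeness. Other genes named were chosen after their values were seen. Alternatives were other pseudocounts, filters, scalings and tools, the replicate block and leaving out each library.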

Additional observations from a re-analysis of the deposited data

Results flagged for a closer look

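In 30 groups of 4 libraries checked, 2 held a library apart from the other 3 by Dixon's criterion, which chance meets in about 1 of 20 groups. The ratio of HY5 to COP1 was 1.94 in control replicate 3, the highest of a control range of 1.74 to 1.94, with a gap of 0.906 of that range. The share of SPA3 in the summed FPKM of SPA1 to SPA4 was 13.4% in high temperature replicate 1, the lowest of a range of 13.4 to 14.4%, with a gap of 0.848 of that range.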

How the results depend on the processing

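HY5 and HYH kept their direction and passed the test under all 17 alternatives. COP1 passed the test with the same total in every library (0.26) and quantile normalization (0.10). SPA1 was reversed to 0.12 and 0.04 by these scalings, which assume equal totals or equal distributions. It stayed at -0.08 without a filter (adjusted p = 0.051 in limma), with DESeq2 (0.053) and with the replicate block (0.055), and at -0.06 with edgeR (0.13), without passing. Without each library in turn SPA1 ran from -0.10 to -0.07. Relative to the median of all genes, SPA1 was -0.10 as reported and with the same total, and 0.06 with quantile normalization, and the cause of these differences was not tested. Without the fold threshold 7798 genes were higher and 7657 lower, and of the listed genes 40 and 30. With the same total 7 listed genes were lower.

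Libraries of the same number did not deviate together (r of 0.007, 0.031, 0.089 and -0.021 over 16714 genes). Whether pools of the same number were grown or harvested together is not given in the sources used here. With the replicate block the differences in log2 ratio stayed at 0.20, 0.30, 0.44, 0.24 and 0.14, and those in share at 3.46 for HY5 and -3.18 for SPA1, but 4 sign flips cannot give a permutation p under 0.125. Leave-one-out differences of the ratio of COP1 to SPA1 ran from 0.11 to 0.16 and those of the share of SPA1 from -3.65 to -2.40. Genes at under 10 normalized counts, such as BBX32 in the control, are limited by depth.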
